A study of Mus musculus with 21 samples.

Results

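The change in mRNA stability in *Ddx6* KO mouse embryonic stem cells (ESCs) was measured as the ratio of total RNA to 4sU-labelled RNA in 4 *Ddx6* KO cultures against the same ratio in 3 wild-type cultures. All 21 samples of the series entered the comparison. They are 7 total RNA libraries and 7 libraries of RNA labelled with 4-thiouridine (4sU), and each of the latter was sequenced in 2 runs whose counts were summed. Of 14518 genes tested, 7605 were protein-coding and had at least 10 CPM (counts per 1e6 counts of the library) in every one of the 14 libraries, and these are called well measured. Among them, 404 were stabilized and 1122 destabilized in *Ddx6* KO at an adjusted p below 0.05, and 219 had nascent RNA and stability changes of opposite sign. A gene that fell below 10 CPM in any library is not among the well-measured genes.

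Wild-type ESCs and *Ddx6* KO ESCs were cultured alike, in serum (15%) with LIF and an inhibitor each of MEK and of GSK3, PD0325901 and CHIR99021. Every culture of both genotypes, controls included, received 500 µM 4sU for 30 min before RNA extraction, so the total RNA libraries also come from labelled cells. The KO cells carry Cas9-induced mutations in *Ddx6* and come from 2 lines, each derived from a single clone, with 2 cultures of each. The effect of the genotype and differences between clones that arose during cloning cannot be told apart, and nothing in the labels says whether the cultures of a line were grown independently, so p-values measure the spread between these cultures. Library totals ran from 2441639 to 3570192 counts in 4sU and from 5724179 to 7369651 in total RNA. In total RNA, *Ddx6* had 314, 357 and 363 CPM in wild type and 59.6, 70.7, 23.9 and 22.5 CPM in *Ddx6* KO, without overlap between the genotypes (exact permutation test, two-sided p = 0.0571, the smallest that 3 against 4 cultures allow). All 12 ESC markers examined were at or above 10 CPM in every total RNA library, while none of 7 fibroblast or feeder markers reached 10 CPM. Of these, 2 were at 0 in all total RNA libraries, and the summed level was 3.14 to 5.34 CPM in wild type and 11.3 to 13.1 CPM in *Ddx6* KO. The summed levels of 5 trophectoderm markers (33.4 to 38.8 CPM in wild type and 53.1 to 68.6 CPM in *Ddx6* KO), 4 mesoderm markers (2.99 to 4.88 and 11.3 to 12.3 CPM) and 4 neural markers (93.5 to 95.4 and 64.5 to 69.7 CPM) each differed through 1 gene. Without *Krt8*, *Kdr* and *Nes*, their highest sums were 16.8 and 15.4, 2.90 and 3.15, and 20.9 and 19.5 CPM. Their part in the results was not tested. In bulk RNA, fewer cells of a type and less RNA per cell cannot be told apart.

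DDX6 is a DEAD box RNA helicase of processing bodies that binds decapping factors, the CCR4-NOT deadenylase complex and repressors of translation. The level of an mRNA is set by how fast it is made and how fast it decays. A short 4sU pulse marks RNA made during the pulse, so at steady state the ratio of total to 4sU-labelled RNA follows mRNA half-life, and a gene whose ratio rises is called stabilized. Whether the cells were at steady state was not tested, and a change in the ratio can come from either of its parts. The nascent RNA change given below uses the same 4sU libraries as the stability change, so both share their measurement error.

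Destabilized mRNAs outnumbered stabilized ones, but their changes were small. The median stability change over well-measured genes was -0.12 on the log2 scale. At an adjusted p below 0.05 from edgeR, 5.31% were stabilized and 14.8% destabilized, and 3.78% and 8.6% over all 14518 genes tested. The balance depended on the scaling between assays. With TMM factors computed within each assay, the median change was -0.03 and the counts were 560 stabilized and 507 destabilized, while scaling by library size gave 330 and 1631. All 404 stabilized genes and 507 of the 1122 destabilized genes were called under both TMM versions. The median stabilized gene had a ratio 1.43 times that of wild type, and the median destabilized gene 0.739 times. CPM printed below are relative to the library total, without the TMM factors that the fitted changes include. These factors were 0.923 to 0.944 in wild type and 1.04 to 1.07 in *Ddx6* KO. Overlap of CPM between genotypes is stated for the unscaled values unless said otherwise, and scaling can change it. Only 29 stabilized and 7 destabilized genes passed an absolute log2 change of 1.

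Stabilized genes had a median nascent change of -0.44 and a median mRNA change of 0.09, and nascent RNA passed the test as lower for 279 of 404. Over all well-measured genes, nascent RNA was higher for 24.4% and lower for 22.1%, with a median change of 0.02, and mRNA was higher for 19.5% and lower for 39.3%, with a median of -0.10. The mRNA of stabilized genes was higher for 156 and lower for 127. Destabilized genes had a median nascent change of 0.22 and a median mRNA change of -0.24, with lower mRNA for 667 and higher nascent RNA for 549 of 1122. The log2 ratio of every *Ddx6* KO culture lay above every wild-type culture for 371 of the 404 stabilized genes, and below for 1029 of the 1122 destabilized genes. Over all well-measured genes these shares were 7.94% and 23.8%. The called genes were selected on the same values of the same cultures, so their separation is a description only. Of 142 well-measured genes not annotated as protein-coding, some of them without an annotated type, 16 (11.3%) were stabilized and 9 (6.34%) destabilized. At the threshold applied to all tested genes with an absolute log2 change above 1, 157 genes or 1.08% were called, and only 36 of these were well measured and protein-coding.

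The largest rise belonged to *Pigl*, an enzyme of an early step in the making of glycosylphosphatidylinositol (GPI) anchors. Nascent *Pigl* RNA (chr11:62458460-62514417, plus strand, mm10) was at 184, 194 and 164 CPM in wild type and 52.5, 43.1, 42.2 and 33.9 CPM in *Ddx6* KO. Its total RNA was at 40.4, 34.6 and 33.9 CPM in wild type and 24.3, 27.9, 23.5 and 22 CPM in *Ddx6* KO. Both pools were lower in every *Ddx6* KO culture, the nascent pool far more so, and the stability change was 1.56 (SE 0.14, adjusted p = 1.2e-11 from edgeR). *Clmp*, an adhesion protein of the immunoglobulin superfamily, was different in that its total RNA was higher. In total RNA it stood at 18.7, 20.1 and 22.8 CPM in wild type and 23.7, 27.9, 30.4 and 33.8 CPM in *Ddx6* KO. In 4sU it was at 56.9, 51.1 and 62.2 CPM in wild type and 36.1, 36.7, 36.8 and 28.3 CPM in *Ddx6* KO, and its stability rose by 1.26 (SE 0.17). Of the 14 largest rises among genes whose cultures did not overlap, 9 were histone genes of the H2A and H2B classes, and the other 5 were *Pigl*, *Chac1*, *Clmp*, *Ccn1* and *Amotl2*.

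The largest fall was that of *Ddx6* itself, at -2.71 (SE 0.46, adjusted p = 0.00343 from edgeR), followed by *Vmp1*, *Dnah8*, *Aqp3*, *Bhlhe40*, *Pgap1* and *Vamp3*. *Dnah8* encodes an axonemal dynein heavy chain, and its total RNA (chr17:30624354-30877365, plus strand) was at 151, 141 and 137 CPM in wild type and 21.9, 19.7, 22.1 and 20.3 CPM in *Ddx6* KO. Nascent *Dnah8* RNA fell as well, by 1.65 on the log2 scale, so that both pools and their ratio were lower, with a stability change of -1.27. *Pgap1* remodels the lipid of GPI anchors and so belongs to the same pathway as *Pigl*. Its total RNA was at 107, 94.9 and 102 CPM in wild type and 42.1, 41.4, 43.8 and 43.9 CPM in *Ddx6* KO, without overlap between the genotypes. Nascent levels were 122, 126 and 133 CPM in wild type and 125, 110.0, 107 and 122 CPM in *Ddx6* KO. They overlapped as printed, but were lower in every *Ddx6* KO culture after division by the TMM factors. Stability of *Pgap1* changed by -1.06 (SE 0.11, edgeR adjusted p = 7e-11). *Ormdl1*, a regulator of sphingolipid synthesis, *Scaper*, a cyclin A-binding protein of the ER, and *Rcc1l*, a factor of mitochondrial ribosomes, changed by -0.92, -0.91 and -0.89. These calls were lost when the 4sU counts of a single run were used, with adjusted p of 0.389, 0.0585 and 0.171 from edgeR, and that of *Ormdl1* also with clone 2 alone.

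**Figure D1:**
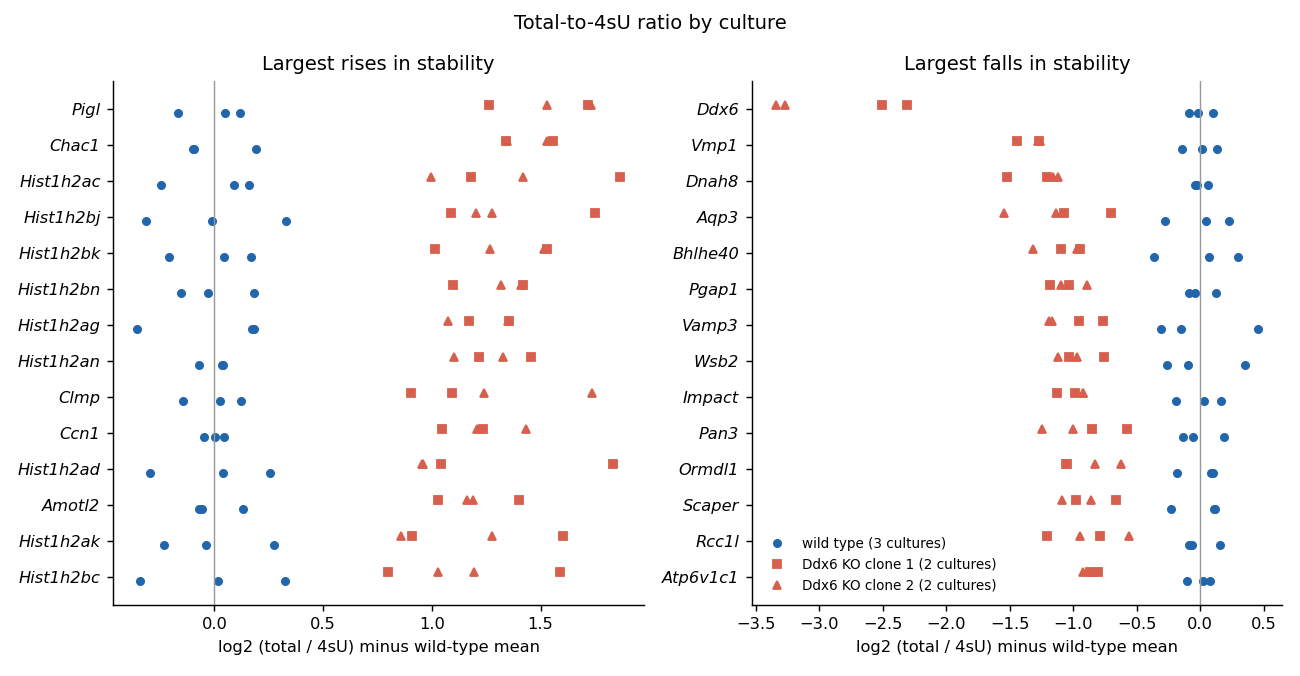
The log2 total over 4sU ratio of TMM-scaled CPM in each culture, relative to the wild-type mean of the gene. Shown are the 14 genes with the largest rise (left) and the 14 with the largest fall (right) in stability. They were taken among genes whose genotypes do not overlap. Circles are the 3 wild-type cultures, squares the 2 cultures of *Ddx6* KO clone 1 and triangles the 2 cultures of clone 2. The genes were chosen for having all *Ddx6* KO cultures on one side of wild type, and the plot shows the distances and the spread within each genotype.

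Replication-dependent histone mRNAs formed the most uniform group. As a class they are made in S phase, lack a poly(A) tail and end in a conserved stem-loop bound by SLBP, which governs their processing and decay. Of 48 well-measured genes, 45 were stabilized, none was destabilized, and the median change was 0.89, against -0.12 over all well-measured genes. With TMM within each assay 46 were stabilized and again none destabilized. Nascent RNA passed as lower for all 48 (22.1% over well-measured genes), with a median change of -1.43, and mRNA passed as lower for 43 (39.3%), with a median of -0.56. Thus the rise in the ratio came with a fall in both pools, larger in 4sU than in total RNA. The class medians of the stability change were 0.73 for H1 (5 genes), 1.11 for H2A (11), 1.05 for H2B (11), 0.80 for H3 (10) and 0.75 for H4 (11).

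Nascent *Hist1h2ac* RNA was at 385, 422 and 552 CPM in wild type and 89.8, 137, 154 and 112 CPM in *Ddx6* KO. Its total RNA was at 104, 108 and 111 CPM in wild type and 76, 72.7, 70.8 and 70.3 CPM in *Ddx6* KO. *Ddx6* KO cultures were lower in both pools without overlap, and the stability change was 1.36 (SE 0.23, adjusted p = 0.00359 from edgeR). *Hist1h2bj*, *Hist1h2bk* and *Hist1h2bn* rose by 1.35, 1.33 and 1.32, and *Hist1h2ag*, *Hist1h2an*, *Hist1h2ad*, *Hist1h2ak* and *Hist1h2bc* by 1.16 to 1.27, the call of *Hist1h2bc* being lost with clone 1 alone. Histone paralogs are nearly identical and the counts hold uniquely mapped reads only, so values of single genes are uncertain where reads could belong to several copies. Levels were therefore also summed over the 48 genes, which does not recover reads lost to multiple mapping. The sums were 22395, 24516 and 27669 CPM in wild type against 8806, 12179, 12332 and 10675 CPM in *Ddx6* KO in 4sU. In total RNA they were 10467, 10525 and 10399.9 CPM against 7903, 8010.4, 8325 and 8427 CPM. The genotypes did not overlap in either pool. The log2 ratio of the sums was -1.12, -1.23 and -1.41 in wild type and -0.11, -0.58, -0.52 and -0.31 in *Ddx6* KO, so that clone 1 replicate 1 stood highest.

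The 3′ stem-loop of these mRNAs was located in the annotated 3′ UTRs (GRCm38), and 1 example per class is shown because it is the feature the group shares. The hairpin is in capitals. The stem-loops of *Hist1h1e* (chr13:23621775-23621804), *Hist1h2ac* (chr13:23683470-23683499), both on the minus strand, *Hist1h2bj* (chr13:22043631-22043660), *Hist1h3b* (chr13:23752813-23752842) and *Hist1h4b* (chr13:23757359-23757388), on the plus strand, read 5′ to 3′:
Hist1h1e: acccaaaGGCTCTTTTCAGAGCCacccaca
Hist1h2ac: acccaaaGGCTCTTTTCAGAGCCcccactt
Hist1h2bj: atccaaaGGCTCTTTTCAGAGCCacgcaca
Hist1h3b: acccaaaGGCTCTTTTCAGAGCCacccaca
Hist1h4b: tacaaaaGGTCCTTTTCAGGACCactcact
Hairpins of H1, H2A, H2B and H3 shown here are identical, and that of *Hist1h4b* differs in its stem. The annotated 3′ UTRs of *Hist1h2ac* and *Hist1h1e* continue for 2010 and 1153 bases past the hairpin, those of the other examples for 23 to 51. Whether counted reads came from such longer forms was not tested. The pattern of a histone stem-loop was found in 33 of 36 listed histone genes with a 3′ UTR of at least 30 bases (91.7%) and in 5 of 7500 other well-measured genes (0.0667%). Those 5 were *H2afx*, *Klf7*, *Syncrip*, *Tmem164* and *4933427D14Rik*, of which *H2afx* (0.63) and *Klf7* (0.42) were stabilized and the others did not pass the test.

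Genes outside the list that encode histones or act on their mRNAs were examined after their values were seen and were not recomputed under other ways of processing. *H2afx*, the variant H2A.X whose mRNA can end in the stem-loop, changed by 0.63 (adjusted p = 1.7e-07 from edgeR) with a nascent change of -1.39. Among variants with ordinary polyadenylated mRNAs, *H1f0* (0.78), *H3f3b* (0.64) and *H2afz* (0.47) were stabilized and *H2afy* (-0.56) was destabilized. *H3f3a* (-0.10) and *H2afv* (-0.15) did not pass the test. *Slbp*, which binds the stem-loop, changed by 0.27 (adjusted p = 0.0308 from edgeR), and *Npat*, the activator of histone gene transcription, had -0.05 (adjusted p = 0.824 from edgeR). Beside the histones, the G1 and S phase list had 5 of 47 members stabilized (10.6%) and 10 destabilized (21.3%), against 5.31% and 14.8% over all genes. Its median was -0.06 and its median mRNA change -0.27, with 8 stabilized and 6 destabilized with TMM within each assay. The mitosis list had 5 stabilized (11.6%) and 4 destabilized (9.3%) of 43, and 6 and 0 with TMM within each assay. Its mRNA passed as lower for 34, where the share over all well-measured genes was 39.3%. The part of the cell cycle in the histone values was not tested.

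ATF4 is the transcription factor of the integrated stress response. Its list holds targets and genes that act on the response, such as *Impact*. Of 21 well-measured members, 11 were stabilized (52.4%, against 5.31% over all genes) and 2 destabilized (9.52%, against 14.8%), *Asns* and *Impact*. The call of *Asns* was lost under 12 of 21 alternatives, TMM within each assay among them. The median was 0.32 and the median nascent change -0.64, with nascent RNA lower for 18, against 22.1% of all well-measured genes. *Chac1*, a glutathione-degrading enzyme, had nascent levels of 205, 216 and 191 CPM in wild type and 37.3, 35.3, 42.2 and 47.9 CPM in *Ddx6* KO. In total RNA it was at 41.2, 35.3 and 30.9 CPM in wild type and 15.7, 17.6, 20.4 and 20.6 CPM in *Ddx6* KO. Both pools were lower in every *Ddx6* KO culture. The drop was larger in 4sU (-2.52) than in total RNA (-1.09), and stability rose by 1.43 (SE 0.15, edgeR adjusted p = 1.5e-10).

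*Sesn2*, a sestrin that restrains mTORC1, *Nupr1*, a stress-induced chromatin protein, *Trib3*, a pseudokinase, and *Ddit4*, another inhibitor of mTORC1, rose by 1.03, 0.96, 0.90 and 0.89. For *Sesn2*, total RNA was at 155, 135 and 159.7 CPM in wild type and 216, 196, 203 and 179 CPM in *Ddx6* KO. As printed it was higher in every *Ddx6* KO culture, but the genotypes overlapped after division by the TMM factors. For *Ddit4*, total RNA was at 52.2, 56 and 49.8 CPM in wild type and 37.4, 42.1, 38.8 and 45.7 CPM in *Ddx6* KO, lower in every one. The fitted mRNA changes were 0.25 for *Sesn2* and -0.52 for *Ddit4*, so stabilized members of the list moved in both directions at the mRNA level. The log2 ratio of *Sesn2* was -1.21, -1.27 and -1.29 in wild type and -0.11, -0.32, -0.25 and -0.26 in *Ddx6* KO. *Slc38a2*, a transporter of neutral amino acids, rose by 0.56. *Impact*, an inhibitor of the ATF4-inducing kinase GCN2, went the other way, with -0.97 (adjusted p = 0.0222 from edgeR). Its call was lost when any of the 3 wild-type cultures, clone 2 replicate 2 or the single-end 4sU run was left out, with an adjusted p of up to 0.12 from edgeR. Across cultures, the median log2 ratio of the list relative to all well-measured genes was -0.74, -0.57 and -0.64 in wild type and -0.14, -0.17, -0.21 and -0.13 in *Ddx6* KO.

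The ATF4 element was searched as TGATGNAA on both strands in RefSeq promoter windows of 250 bases before to 50 after the start (GRCm38.p6). It occurred in 6 of 18 list members with a window (33.3%), namely *Asns*, *Chac1*, *Nupr1*, *Pycr1*, *Trib3* and *Vldlr*, and in 152 of 6083 well-measured genes (2.5%). Among list members it was found in 3 of 9 stabilized and 3 of 9 other genes. The 3 stabilized ones are shown with the element in capitals, on the strand of the gene, where it appears as its reverse complement. They lie at chr2:119351038-119351067 (plus strand), chr7:126625562-126625591 and chr2:152344028-152344057 (both minus strand):
Chac1: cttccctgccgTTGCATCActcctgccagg
Nupr1: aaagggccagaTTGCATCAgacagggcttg
Trib3: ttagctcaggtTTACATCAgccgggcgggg
A match is a description of these windows and does not show binding.

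Immediate early transcripts are short-lived and encode inducible transcription factors. Of 19 well-measured members 9 were stabilized (47.4%, against 5.31% over all genes) and none destabilized, with a median of 0.34. The stabilized members were *Mycn*, *Junb*, *Jun*, *Ier5l*, *Klf9*, *Klf2*, *Ier2*, *Klf4* and *Klf13*. *Mycn*, a MYC family factor of stem cells, had log2 ratios of -1.69, -1.58 and -1.71 in wild type and -0.68, -0.69, -0.60 and -0.69 in *Ddx6* KO, and rose in stability by 1.00 (SE 0.09, edgeR adjusted p = 2.2e-12). *Jun* and *Junb*, subunits of AP-1, differed from most stabilized genes in that their nascent RNA rose too, by 0.41 and 1.28. Total *Junb* RNA was at 21.3, 18 and 20.1 CPM in wild type and 89.4, 84.7, 99.1 and 85.2 CPM in *Ddx6* KO, an mRNA change of 2.02 of which stability made up 0.74. The list median relative to all genes was -2.17, -2.03 and -2.10 in wild type and -1.71, -1.72, -1.82 and -2.05 in *Ddx6* KO, so that clone 2 replicate 2 overlapped wild type.

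Regulators of pluripotency and lineage moved in both directions. The naive pluripotency list had 7 of 28 stabilized (25%) and 5 destabilized (17.9%), against 5.31% and 14.8% over all genes. Its median was -0.02, and 8 were stabilized and 2 destabilized with TMM within each assay. *Tbx3* (0.77), *Sox2* (0.60) and *Zfp281* (0.60) were stabilized, while *Tdgf1* (-0.83) and *Tfcp2l1* (-0.56) were destabilized. Total *Tbx3* RNA, a T-box factor of naive cells, was at 244, 285 and 287 CPM in wild type and 453, 519, 464 and 477 CPM in *Ddx6* KO, with nascent levels that passed no test (log2 change -0.11). In the Nodal pathway, the ligand *Nodal* and its antagonist *Lefty2* changed in opposite directions. *Nodal* had log2 ratios of -1.25, -1.24 and -1.24 in wild type and -0.50, -0.32, -0.48 and -0.26 in *Ddx6* KO, and *Lefty2* of 1.29, 1.68 and 1.94 in wild type and 0.69, 1.13, 0.88 and 0.76 in *Ddx6* KO. Neither overlapped between genotypes, and the stability changes were 0.85 and -0.76. *Foxd3* rose by 0.87 and the BMP pseudoreceptor *Bambi* by 0.65, and *Tdgf1*, the coreceptor of Nodal, fell by 0.83 on the log2 scale.

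The Hippo pathway restrains the coactivator YAP, and its list held calls in both directions. Of 20 well-measured members 4 (20%) were stabilized and 3 (15%) destabilized, against 5.31% and 14.8% over all genes. The median was -0.07, and 6 were stabilized and 1 destabilized with TMM within each assay. The stabilized ones were *Amotl2* and *Ajuba*, which bind YAP or its kinase, the kinase *Lats1* and the secreted YAP target *Ccn1*. The destabilized ones were *Nf2*, *Tead1* and *Tead2*, of which the TEAD proteins are the DNA-binding partners of YAP. The call of *Nf2* was lost under 11 of 22 alternatives and those of *Tead1* and *Tead2* under 1 each. *Lats1* rose by 0.78 with a nascent change of 0.22 and an mRNA change of 1.00. *Amotl2* had log2 ratios of -1.93, -1.74 and -1.94 in wild type and -0.47, -0.84, -0.71 and -0.68 in *Ddx6* KO, a change of 1.19 (SE 0.14, adjusted p = 7e-05 from edgeR). *Ccn1* had nascent levels of 546, 547 and 533 CPM in wild type and 193, 254, 172 and 118 CPM in *Ddx6* KO. Its total levels were 58.7, 60.8 and 60.3 CPM in wild type and 48.4, 56.4, 41.9 and 34.2 CPM in *Ddx6* KO. The stability change was 1.21, but the call was lost when wild-type replicate 1, 2 or 3, clone 1 replicate 1 or clone 2 replicate 1 was left out, with an adjusted p of up to 0.117 from edgeR.

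Targets of SRF and genes of the actin cytoskeleton gave 8 stabilized (34.8%) and 3 destabilized (13%) members of 23, against 5.31% and 14.8% over all genes. Their median was -0.09, and 8 were stabilized and 2 destabilized with TMM within each assay. *Actb*, the cytoplasmic beta-actin, had total levels of 3670, 3707 and 3757 CPM in wild type and 4541, 4605, 4520 and 4589 CPM in *Ddx6* KO. Its nascent levels were 3808, 3709 and 4057 CPM in wild type and 2929, 3177, 3158 and 2842 CPM in *Ddx6* KO. The pools thus moved apart, total up and nascent down in each *Ddx6* KO culture, and stability rose by 0.70 (SE 0.07, edgeR adjusted p = 1.1e-10). *Cnn2* (0.90), a calponin, *Myl6* (0.77), a myosin light chain, and *Pdlim7* (0.70), an adaptor at actin filaments, were also stabilized. *Tagln2* (-0.46), a transgelin, was among those destabilized.

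The core of AU-rich elements, which recruit decay factors to short-lived mRNAs, written here as TATTTAT, was present in the 3′ UTR of 31.5% of 7538 well-measured genes, of 33.7% of stabilized and of 34.7% of destabilized genes. It is shown for *Ccn1* (chr3:145647092-145647121, minus strand) and *Chac1* (chr2:119353773-119353802, plus strand, GRCm38), which are among the largest rises in stability and hold the element, given in capitals:
Ccn1: gaatgttttttTATTTATcaaagtgtagct
Chac1: acttgaaccttTATTTATtgcaccatgttg
No test was made of the shares.

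mRNAs of cytosolic ribosomal proteins had small changes in stability, and 56 of 61 values were above 0, against 2461 of 7605 over all well-measured genes. Of the 61 members 14 were stabilized (23%, against 5.31% over all genes) and none destabilized, with a median of 0.20. With TMM within each assay 30 were stabilized and none destabilized. Nascent RNA was lower for 60 members (22.1% over well-measured genes), with a median change of -0.92, and mRNA for 57 (39.3%), with a median of -0.71. *Rpl5* (0.68) and *Rps9* (0.57) had the largest changes. The list median relative to all genes was -1.14, -1.16 and -0.98 in wild type and -0.65, -0.59, -0.59 and -0.89 in *Ddx6* KO, without overlap. The 67 proteins of the mitochondrial ribosome did not share this, with 2 stabilized, 3 destabilized and a median of -0.09.

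Transcripts of the mitochondrial genome were strongly represented in the 4sU libraries. Of 7 well-measured genes, 5 were stabilized (71.4%, against 5.31% over all genes) and none destabilized, with a median of 0.61. *mt-Nd1*, a subunit of complex I, had nascent levels of 31012, 40564 and 31146 CPM in wild type and 21490, 21245, 19012 and 24085 CPM in *Ddx6* KO. Its total levels were 1020, 1085 and 1008 CPM in wild type and 1039, 1010, 986 and 940.3 CPM in *Ddx6* KO. As printed, the nascent levels did not overlap between the genotypes while the total levels did. After division by the TMM factors the total levels too were lower in every *Ddx6* KO culture. The stability change was 0.66 (SE 0.13, adjusted p = 0.0049 from edgeR). *mt-Cytb*, the cytochrome b of complex III, changed by 0.61. Among the 66 nuclear genes of the respiratory chain none was stabilized and 9 (13.6%, against 14.8% over all genes) were destabilized. Their median of -0.11 was close to that of all well-measured genes. With TMM within each assay 1 was stabilized and 3 were destabilized.

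Factors that act on mRNA were examined in several lists. The deadenylase and poly(A)-binding list had 2 of 24 stabilized (8.33%) and 6 destabilized (25%), against 5.31% and 14.8% over all genes. Its median was -0.16, and 2 were stabilized and 5 destabilized with TMM within each assay. *Pan3*, the partner of the deadenylase PAN2, had total levels of 86.7, 80.6 and 93 CPM in wild type and 62.9, 72.5, 60.4 and 58.8 CPM in *Ddx6* KO. Its nascent levels were 45.1, 40.0 and 39.1 CPM in wild type and 56.4, 53, 60.6 and 68.9 CPM in *Ddx6* KO. Total RNA was lower and nascent RNA higher in every *Ddx6* KO culture, and the stability change was -0.94 (SE 0.14, adjusted p = 1e-06 from edgeR). The CCR4-NOT subunits *Cnot4* (-0.64) and *Cnot10* (-0.63) were destabilized, as were the scaffold *Cnot1* and *Cnot2*. *Tob2*, which recruits CCR4-NOT to mRNAs, rose by 0.82, with total levels of 32.3, 32.1 and 32.6 CPM in wild type and 47.2, 49.3, 52 and 51.8 CPM in *Ddx6* KO.

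Among 21 processing body and decapping genes, 2 were stabilized and 3 (14.3%, against 14.8% over all genes) destabilized, with a median of -0.21. With TMM within each assay 2 were stabilized and none destabilized. The stabilized ones were *Pnrc1* (0.76) and *Pnrc2* (0.69), paralogs that bind the decapping machinery. In the miRNA list of 13 genes, *Tnrc6a*, which links Argonaute to CCR4-NOT, was stabilized by 0.51, and the median was 0.02. *Ago3* was called destabilized, but this was lost under 12 of 22 alternatives, and its change was -0.57 to -0.17 when 1 culture was left out. In nonsense-mediated decay, *Smg5* rose by 0.42 and *Smg1* fell by 0.48 on the log2 scale, with 14 of 17 genes not past the test. The exosome list had 3 of 19 destabilized (15.8%, against 14.8% over all genes). Among them were *Ttc37* (-0.64), of the cytoplasmic SKI complex, and *Mtrex* (-0.40), the nuclear exosome helicase. Of 16 SR splicing factors, *Srsf1* (0.64), *Srsf6* (0.43), *Srsf2* (0.39) and *Srsf5* (0.34) were stabilized and *Tra2a* (-0.62) was destabilized.

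Among lists with more destabilized than stabilized members was that of cholesterol synthesis and uptake. Of its 22 members 10 were destabilized (45.5%, against 14.8% over all genes) and none stabilized, with a median of -0.32. With TMM within each assay 5 were destabilized. *Cyp51*, the lanosterol demethylase, had total levels of 144, 150.3 and 143 CPM in wild type and 90.1, 83.3, 84.5 and 94.4 CPM in *Ddx6* KO. Its nascent levels were 118, 104 and 117 CPM in wild type and 124, 119.9, 136 and 111 CPM in *Ddx6* KO. Total RNA fell without overlap while nascent levels overlapped, and the stability change was -0.80 (SE 0.10, adjusted p = 5.2e-08 from edgeR). *Hmgcs1*, of the first steps of the pathway, was at 443, 468 and 479 CPM in wild type and 293, 272, 278 and 290.2 CPM in *Ddx6* KO in total RNA and changed by -0.60, and *Msmo1* changed by -0.53. Others include *Sqle*, *Fdft1*, *Sc5d*, *Insig1* and the transcription factor *Srebf2*. The list median relative to all genes was 0.06, 0.05 and 0.10 in wild type and -0.01, -0.14, -0.25 and -0.02 in *Ddx6* KO.

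Of 35 lysosomal genes, 11 were destabilized (31.4%, against 14.8% over all genes) and none stabilized, with a median of -0.24. Nascent RNA passed as higher for 15 members, against 24.4% of all well-measured genes, and the median mRNA change was -0.03. *Atp6v1c1*, of the peripheral part of the vacuolar proton pump, had nascent levels of 22.9, 23.9 and 25.4 CPM in wild type and 54.9, 45.5, 50.3 and 51 CPM in *Ddx6* KO. Its total RNA was at 85.4, 92 and 85.5 CPM in wild type and 109, 87.5, 91.7 and 99.8 CPM in *Ddx6* KO. Nascent levels rose without overlap, total levels did overlap, and the stability change was -0.87 (SE 0.14, adjusted p = 1.3e-05 from edgeR). *Atp6v1d* of the same pump changed by -0.66 and *Npc2*, a cholesterol carrier of the lysosome, by -0.60. With TMM within each assay 5 members were destabilized. The list median relative to all genes was 0.76, 0.72 and 0.79 in wild type. In *Ddx6* KO it was 0.70 and 0.71 in clone 1, close to wild type, and 0.54 and 0.49 in clone 2.

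Adhesion and extracellular matrix genes had 11 of 33 members destabilized (33.3%, against 14.8% over all genes) and 1 stabilized, with a median of -0.24. *Fn1*, fibronectin, had total levels of 1029, 948 and 910.0 CPM in wild type and 602, 615, 555 and 598 CPM in *Ddx6* KO. Its nascent levels were 513, 565 and 496 CPM in wild type and 526, 452, 488 and 528 CPM in *Ddx6* KO. Total levels fell without overlap. Nascent levels overlapped as printed, but were lower in every *Ddx6* KO culture after division by the TMM factors. The stability change was -0.58 (SE 0.08, adjusted p = 3.7e-07 from edgeR). The laminin chains *Lama1* (-0.57) and *Lamc1* (-0.46) and the integrins *Itga6* and *Itgb1* were destabilized too, and the plakoglobin gene *Jup* (0.53) was stabilized. With TMM within each assay 4 were destabilized.

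Other lists also had many destabilized members, against 14.8% over all genes. The shares were 40% for nuclear pore, 26.8% for proteasome, 24% for mitochondrial carrier and 26.5% for aminoacyl-tRNA synthetase genes. Nuclear pore genes had 10 of 25 destabilized, led by *Nup210* (-0.79), with total levels of 179.6, 183 and 161 CPM in wild type and 109.6, 112, 101 and 114 CPM in *Ddx6* KO, and 1 stabilized, *Nup62* (0.48). Only 2 of them were destabilized with TMM within each assay. Proteasome genes had 11 of 41 destabilized and none stabilized, with a median of -0.22, and 4 with TMM within each assay. Mitochondrial carriers had 6 of 25 destabilized and none stabilized, among them the citrate carrier *Slc25a1* (-0.61) and *Slc25a36* (-0.48), a carrier of pyrimidine nucleotides, and 4 were destabilized with TMM within each assay. Culture medians of the nuclear pore and proteasome lists overlapped between the genotypes and those of the carriers did not. Among aminoacyl-tRNA synthetase genes, which charge tRNAs, 9 of 34 were destabilized and 1 stabilized, but their median of -0.08 was above that of all genes, and 5 and 1 were so called with TMM within each assay.

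**Figure D2:**
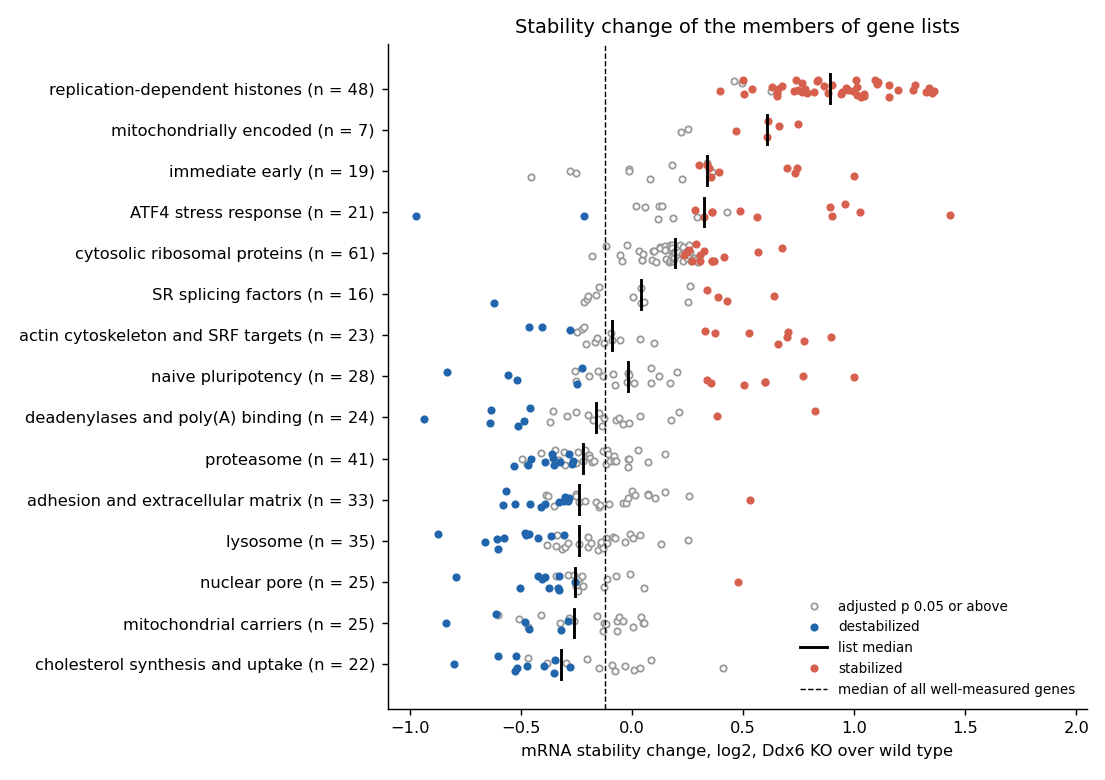
Stability change, as log2 of *Ddx6* KO over wild type, of each well-measured member of 15 gene lists. Filled red points are stabilized and filled blue points destabilized genes at an adjusted p below 0.05, open points did not pass, black bars are list medians and the dashed line is the median of all 7605 genes at -0.12. Histones lie to the right with a median of 0.89 and cholesterol genes to the left with a median of -0.32.

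**Figure D3:**
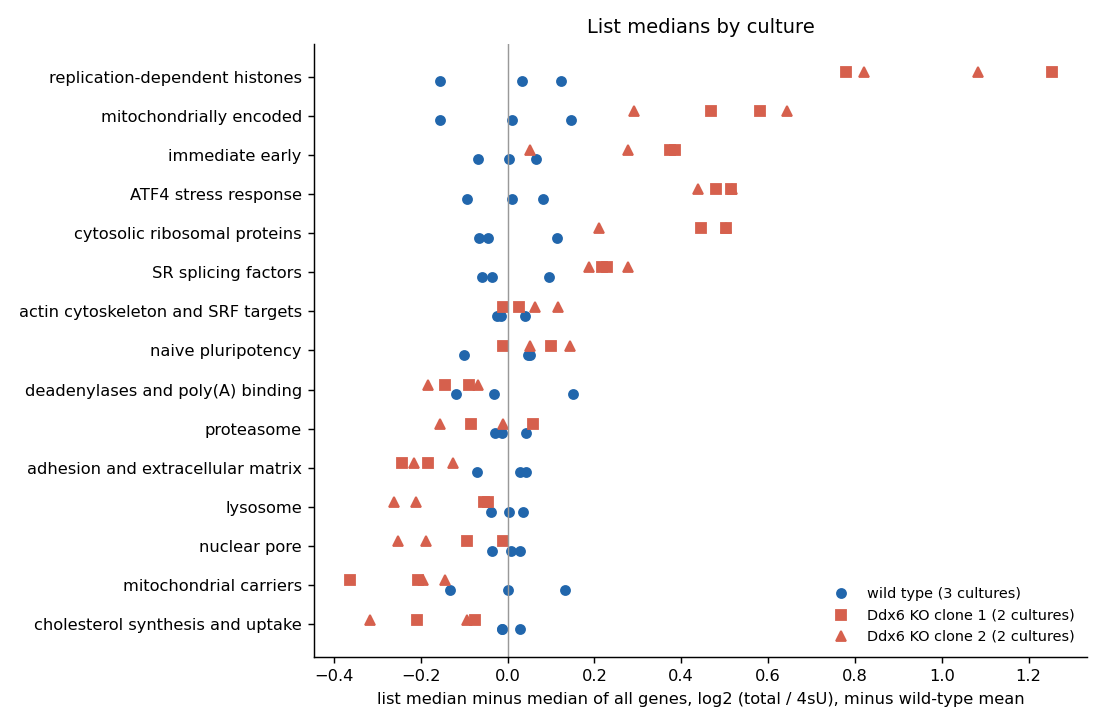
The median log2 total over 4sU ratio of TMM-scaled CPM over the members of each list, in each of the 7 cultures. Values are relative to the median of all well-measured genes and to the wild-type mean. Circles are wild type, squares *Ddx6* KO clone 1 and triangles clone 2. The *Ddx6* KO cultures lie above wild type for histones, the ATF4 list, ribosomal proteins, SR factors and mitochondrially encoded genes. They lie below for the cholesterol, lysosome, matrix and carrier lists. They overlap for the immediate early, actin, naive pluripotency, deadenylase, proteasome and nuclear pore lists.

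Genes whose nascent RNA and stability changed in opposite directions, each past an adjusted p of 0.05 and an absolute log2 change of 0.5, numbered 219. In 112 of them (1.47% of well-measured genes) nascent RNA rose and stability fell, and in 107 (1.41%) nascent RNA fell and stability rose. Since a high 4sU value raises the nascent change and lowers the stability change by the same amount, error in the 4sU libraries can place genes in these groups. Therefore the nascent change was also read from 1 sequencing run and the stability change from the other. With the nascent change from the single-end run and the stability change from the re-sequencing run, 83 genes of the first kind and 92 of the second were counted, of which 57 and 86 were among those above. With the runs exchanged, 70 and 92 were counted, of which 56 and 91 were among those above. Both runs come from the same libraries, so error made before sequencing is shared.

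Of the 112 genes with higher nascent RNA and lower stability, 65 had mRNA changes that did not pass the test, 42 had higher and 5 lower mRNA. Their median nascent change was 0.69, the median stability change -0.60 and the median mRNA change 0.06. *Vmp1*, an ER membrane protein needed to form autophagosomes, had nascent levels (chr11:86583865-86683836, minus strand) of 67.2, 68.6 and 82.9 CPM in wild type and 324, 288, 279 and 278 CPM in *Ddx6* KO. Its total RNA was at 51.9, 48.5 and 52.1 CPM in wild type and 80.3, 81.3, 77.9 and 78 CPM in *Ddx6* KO. The nascent pool rose by 1.79 and the total pool by 0.49, without overlap in either, and the stability change was -1.31 (SE 0.11, adjusted p = 5.1e-13 from edgeR). *Bhlhe40*, a repressor with a basic helix-loop-helix domain, had nascent levels of 16, 19.8 and 20.7 CPM in wild type and 176, 149, 179.6 and 224 CPM in *Ddx6* KO. Its total levels were 17.1, 18 and 13.7 CPM in wild type and 68.1, 65.3, 75.9 and 75.2 CPM in *Ddx6* KO. Both pools were higher in every *Ddx6* KO culture, and the stability change was -1.08 (SE 0.20).

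*Aqp3*, a channel for water and glycerol, had changes that nearly cancelled. Its nascent RNA (chr4:41092722-41098183, minus strand) was at 31.5, 37.3 and 45.1 CPM in wild type and 87.1, 71, 76.1 and 107 CPM in *Ddx6* KO. Total RNA was at 76.9, 80.0 and 76.4 CPM in wild type and 82, 87.5, 68 and 73.3 CPM in *Ddx6* KO, with overlapping genotypes, for changes of 0.96 in nascent RNA, -1.11 in stability and -0.16 in mRNA. *Wsb2*, a substrate receptor of ubiquitin ligases (1.17 and -0.97), *Tdgf1* (0.90 and -0.83) and the phosphatase *Cdc14b* (0.92 and -0.78) also had nascent and stability changes of like size. Of the 112 genes of this kind 13 are members of the lists, a smaller share than over all well-measured genes (1719 of 7605). Of the 35 lysosomal list members 4 were of this kind, *Tfeb*, *Atp6v1c1* and *Atp6v1d* among them. *Fnip1*, *Rragc* and *Manba*, which act at or in the lysosome, also belong to the 112 and were picked out after their values were seen.

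Chromosome 6 held 19 of the 112 and 4.55% of well-measured genes. Its 346 well-measured genes had a median nascent change of 0.54 and a median mRNA change of 0.39, while the median stability change was -0.16, near that of all genes. *Bhlhe40*, *Cnot4*, *Tra2a* and *Nup210* lie there. Without chromosome 6 in the fit, 99 genes of the kind were counted. The part of the chromosome in the nascent change of these genes was not tested. With TMM within each assay 57 genes rose in nascent RNA and fell in stability, and 278 with scaling by library size.

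Of the 107 genes with lower nascent RNA and higher stability, 43 were histones, and 64 were not. The mRNA passed as lower for 65, as higher for 5 and not for 37. The medians were -1.14 for nascent RNA, 0.75 for stability and -0.41 for mRNA, and none of these genes lies on chromosome 6. Beside histones, the lists contributed 6 of 21 genes of the ATF4 list and 4 of 23 p53 targets. They also contributed 4 of 23 genes of the actin list and 4 of 7 mitochondrially encoded genes. The share over all well-measured genes was 1.41%. The p53 targets were *Sesn2* and *Ddit4*, shared with the ATF4 list, *Plk2* (0.74) and *Phlda3* (0.63). By the smaller of both changes, the leading genes were *Pigl*, *Chac1*, *Hist1h2ac*, *Hist1h2ag*, *Hist1h2an*, *Hist1h2bj*, *Hist1h2bk* and *Hist1h2bn*. Genes in which both changes had the same sign and passed the same limits numbered 8 up and 9 down, and include *Junb* and *Dnah8*. Error in the shared 4sU libraries works against such pairs, so these counts cannot be compared with those of opposing genes.

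**Figure D4:**
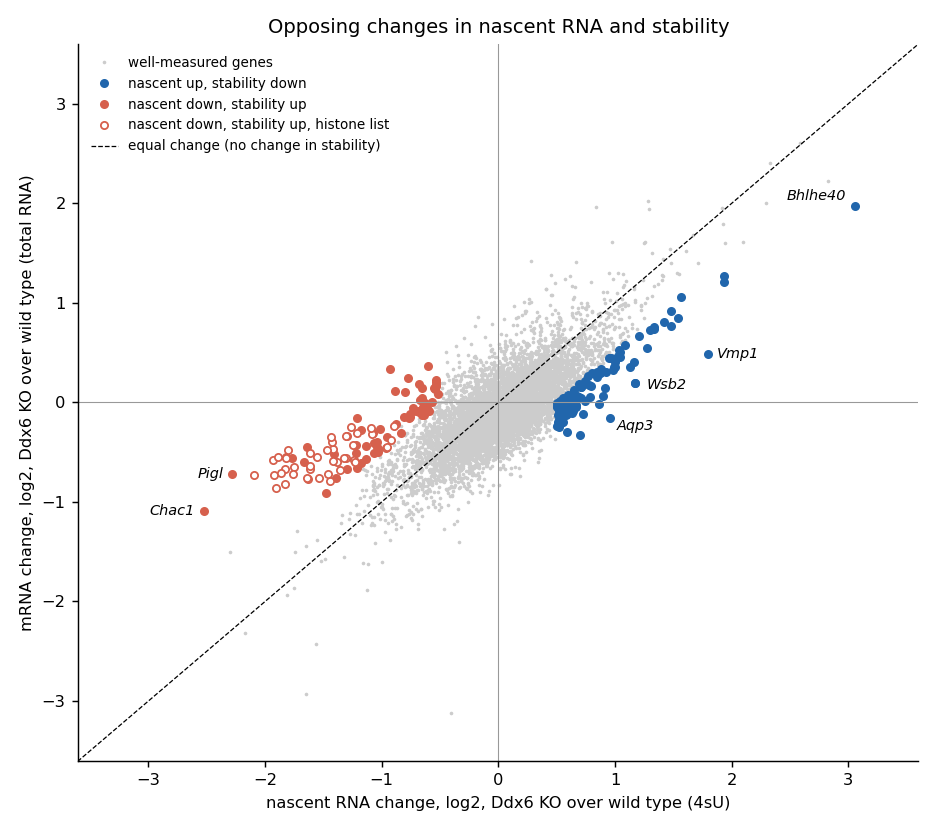
The mRNA change in total RNA against the nascent RNA change in 4sU for the 7605 well-measured genes, both as log2 of *Ddx6* KO over wild type. Genes on the dashed line have no change in stability. Blue points mark the 112 genes with nascent RNA up and stability down and red points the 107 with nascent RNA down and stability up, open for the 43 histones. Blue points lie below the dashed line and red points above it, and the median mRNA changes are 0.06 and -0.41.

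Stabilized and destabilized mRNAs differed in the number of exons. The principal transcript of stabilized genes had a median of 4.5 exons, or 5 without the histones and mitochondrially encoded genes, that of destabilized genes 14 and that of all well-measured genes 10. The genes spanned a median of 8.73, 44.1 and 26.7 kb. The coding sequence had a median of 1189.5 bases in stabilized, 1788 in destabilized and 1491 in all genes, and GC at the last codon position was 64.4%, 52.6% and 58.5%. The 3′ UTR differed less, with medians of 1077, 1270.5 and 1169 bases.

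The shares followed exon number step by step. Leaving out histones and mitochondrially encoded genes, 27.7% of 94 genes with 1 exon were stabilized and 3.19% destabilized. Of 1223 genes with 21 or more exons, 0.736% were stabilized and 25.6% destabilized. The median stability change went from 0.14 with 1 exon and 0.07 with 2 to 3 to -0.16 with 11 to 20 and -0.21 with 21 or more. Genes with 1 to 3 exons exceeded those with 21 or more by 0.29, and this difference was 0.27 to 0.31 under 22 other ways of processing the data. This comparison is a description without a test and was chosen after the data were seen.

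Per culture, the median log2 ratio of genes with 1 to 3 exons minus that of genes with 21 or more was -1.59, -1.67 and -1.70 in wild type and -1.34, -1.37, -1.34 and -1.35 in *Ddx6* KO. Levels between genes are not per length here, so that only the change between genotypes is read. In the 4sU libraries the difference in log2 CPM was 0.19, 0.21 and 0.22 in wild type against -0.06, 0.02, -0.06 and 0 in *Ddx6* KO. In total RNA it was -1.47, -1.44 and -1.40 against -1.40, -1.44, -1.36 and -1.37. The genotypes were apart in 4sU and overlapped in total RNA, so the shift was seen in the labelled pool. When genes were divided into 3 equal parts by mRNA length, those with 1 to 6 exons exceeded those with 11 or more by 0.16, 0.14 and 0.19 within the parts. By level in total RNA the differences were 0.09, 0.11 and 0.20, and by GC content of the coding sequence 0.19, 0.12 and 0.11. Exon number, gene span and coding length move together, and their separate parts were not tested beyond these splits.

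**Figure D5:**
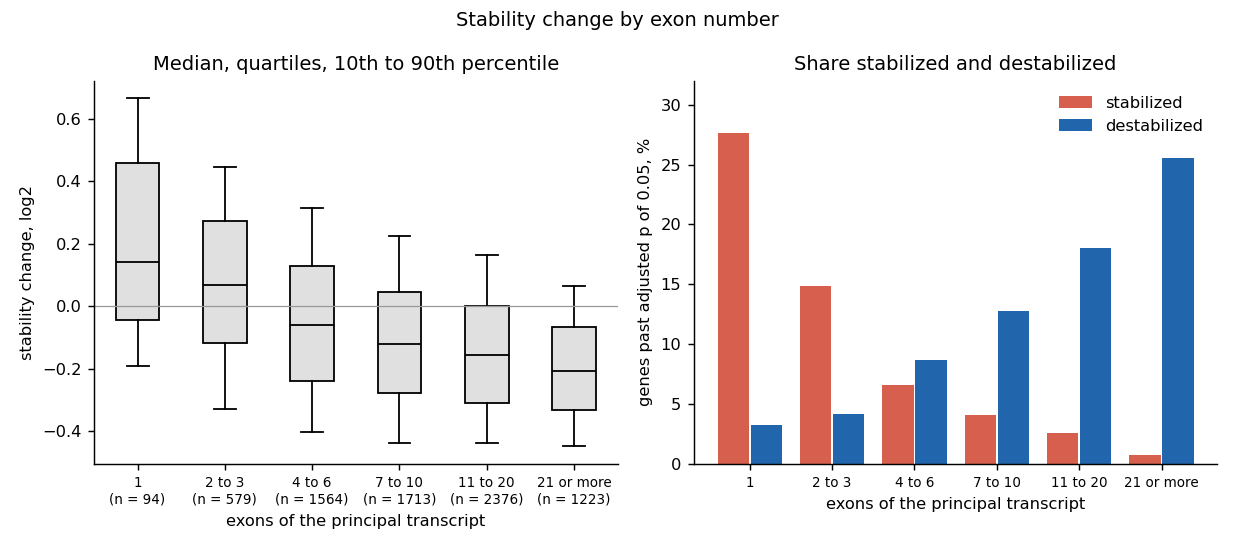
Stability change by the number of exons of the principal transcript, without histones and mitochondrially encoded genes. Left, box plots of the log2 stability change with the median, quartiles and the 10th and 90th percentiles. Right, percent of genes stabilized (red) and destabilized (blue) at an adjusted p below 0.05. The stabilized share goes from 27.7% at 1 exon to 0.736% at 21 or more exons and the destabilized share from 3.19% to 25.6%.

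Stability changes computed with each clone alone had medians of 0.51 and 0.54 for stabilized and -0.42 and -0.43 for destabilized genes in clone 1 and clone 2. These genes were chosen on both clones together against the same wild-type cultures, so the values are a description only. In a direct test of the difference between clones across 14518 genes, edgeR called only *Ddx6*, with 586 genes at an unadjusted p below 0.05. The change of *Ddx6* was -2.40 in clone 1 and -3.33 in clone 2 (adjusted p of the difference = 0.00055 from edgeR), and no gene was called when clone 1 replicate 2 or clone 2 replicate 1 was left out.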

How the data were processed

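Total RNA depleted of ribosomal RNA and 4sU-labelled RNA, biotinylated and captured on streptavidin, were sequenced from 3 wild-type and 4 *Ddx6* KO cultures. The authors deposited raw counts per gene with gene lengths, which were not used. Per the labels and methods, reads were trimmed with cutadapt 1.14, aligned to mm10 with STAR 2.5.3a keeping uniquely mapped reads, and counted by strand with featureCounts 1.5.3 against Gencode genes without rRNA. Unique mapping lowers the counts of genes with near-identical copies.

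Counts of the 2 runs of each 4sU library were summed, giving 14 libraries. Of 51559 genes, 14518 reached 3 CPM in 3 or more libraries and were tested. Genotype, assay and their interaction were fitted in edgeR 4.0.16 (R 4.3.3) with quasi-likelihood tests, TMM factors over all 14 libraries and Benjamini-Hochberg adjusted p-values. The interaction is the stability change, the genotype effect in 4sU the nascent change and that in total RNA the mRNA change. SE is the log2 change divided by the square root of F. Log2 ratios per culture used CPM scaled by the TMM factors and a pseudocount of 0.5 CPM. The ratio of summed histone levels used the TMM factors without a pseudocount. A count of 3 corresponds to 0.84 to 1.23 CPM in 4sU and 0.407 to 0.524 CPM in total RNA, which covers counting error only.

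Named genes were *Ddx6*, the 14 largest rises and 14 largest falls among called well-measured genes whose cultures did not overlap, the 8 of each opposing kind whose smaller change was largest, and up to 4 called members of each list in each direction. Other genes were chosen after their values were seen. Members and lists were chosen with earlier results of these data known. Alternatives were limma-voom (limma 3.58.1), DESeq2 1.42.0, other scalings, filters, runs, clones, blocks and thresholds, and leaving out each culture. On simulated data over 14518 genes, the stability test called 56% of genes changed by 0.5 on the log2 scale, 99% of those changed by 1 and 4 of 14318 unchanged genes. Both genotypes were simulated from wild-type means with as many rises as falls. The simulation therefore cannot show how often the choice of scaling leads to false calls. Exact permutation tests used scipy 1.17.1. Promoters came from RefSeq tables, exons and UTRs from a later Gencode release for GRCm38.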

Additional observations from a re-analysis of the deposited data

Results flagged for a closer look

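In 2 of 46 groups of 4 *Ddx6* KO cultures examined, 1 culture stood far from the others, where chance gives about 2.3. The log2 ratio of total over 4sU for *Hist1h2ad* was 1.05 in clone 1 replicate 1 and 0.25, 0.17 and 0.17 in the other cultures, a gap of 0.904 of the whole range. That of *Vmp1* was -1.96 in clone 1 replicate 1 and -1.79, -1.79 and -1.80 in the others, a gap of 0.919 of the range. Clone 1 replicate 1 also had the highest ratio of summed histone levels. The stability change of *Ddx6* differed between the clones by -0.93 (clone 2 minus clone 1, SE 0.15, adjusted p = 0.00055 from edgeR), being lower in both cultures of clone 2.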

How the results depend on the processing

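Of 5201 values recomputed for 237 named genes, none changed direction and 655 no longer passed the threshold. For 131 genes every value passed, and every gene given with a stability value in the report as stabilized or destabilized is among them, except *Ccn1*, *Impact*, *Ormdl1*, *Scaper*, *Rcc1l* and *Hist1h2bc* and the genes chosen after their values were seen. Genes named without a value were in part not recomputed. The 1526 well-measured genes called became 1017 (596 destabilized) without a filter beyond 1 count, 1010.0 (712) with the re-sequencing run alone, 943 (657) with clone 1 alone, 955 (651) with clone 2 alone, 571 (217 stabilized, 354 destabilized) above an absolute log2 change of 0.5 and 36 (29 and 7) above 1. Destabilized genes numbered 703 with DESeq2, 507 with TMM within each assay, 714 with DESeq2 size factors and 700.0 with at least 3 CPM in every library. Leaving out 1 culture gave 893 to 1405 called and 603 to 1031 destabilized, with 893 and 603 without wild-type replicate 2 and 1001 and 725 without wild-type replicate 1. Of the 157 genes past a log2 change of 1 (100.0 stabilized, 57 destabilized), DESeq2 called 103 (27 destabilized) and the filter of 3 CPM in every library left 88 (15), while TMM within each assay gave 37 destabilized, protein-coding genes alone 33 and the adjusted p alone 1797 (549 and 1248).

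The 219 opposing genes became 355 with scaling by library size, 26 above a change of 1 in both and 828 by adjusted p alone. Those with nascent RNA up numbered 112, against 61 with DESeq2, with its size factors and with 3 CPM in every library, 57 with TMM within each assay, 278 by library size, 73 with protein-coding genes alone, 67 at 20 CPM, 70 across runs, 2 above 1 and 549 by adjusted p alone. Those with nascent RNA down numbered 107, against 24 above 1, 279 by adjusted p alone and 64 without histones, the last chosen after seeing the data. The cause was not tested.

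Relative to all genes, 375 of 384 list medians stayed within 1 SD of the cultures. Exceptions were the actin list (0.029, but 0.093 with clone 2 alone, -0.0023 with clone 1 alone, and 0.016 to 0.084 with 1 culture left out, over 0.08 without wild-type replicate 2 or 3), the Hippo list (0.05, but 0.21 at 5 CPM), the lysosome list (-0.12, but -0.0069 with clone 1 alone), the matrix list (-0.12, but -0.058 with clone 1 alone, and -0.13 to -0.062 with 1 culture left out, the latter without clone 1 replicate 1) and the carriers (-0.14, but -0.016 at 5 CPM and -0.0025 at 20 CPM). The difference between clones called 0 to 1 gene when a culture was left out, and 0 without clone 1 replicate 2 or clone 2 replicate 1.

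Replicates with the same number in both genotypes had correlated deviations of -0.13 to 0.18 in 4sU and 0.01 to 0.14 in total RNA, not all over 0.1, so the numbers were not used as pairs. Total and 4sU RNA of a culture deviated together only weakly (r of 0.01 to 0.08, 6 of 7 cultures correlating best with their own). With culture as a replicate block 446 genes were stabilized and 1270.0 destabilized, of which 402 and 1120.0 were called without it, and with the replicate number as a block 409 and 1172. With the culture block the opposing genes could not be computed. Depth limits 4sU values more than total RNA values, and genes near 10 CPM have the widest errors.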

Other observations

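Further gene lists had calls in both directions or mostly in 1. Over all well-measured genes 5.31% were stabilized and 14.8% destabilized. Of 275 zinc finger genes 27 were stabilized and 23 destabilized (41 and 6 with TMM within each assay), with a median stability change of -0.0039 and with *Zfp599* (0.93) and *Zfp975* (-0.85) at the ends. Solute carriers of the plasma membrane and other membranes had 8 of 71 stabilized and 10 destabilized (11 and 5). These shares were 11.3% and 14.1%, against 5.31% and 14.8% over all genes. Among the stabilized ones were the amino acid transporters *Slc7a3* (0.80) and *Slc1a5* (0.56). Tubulins had 3 of 17 stabilized, *Tubb2a* (0.69) among them, and none destabilized (5 and 0). In the mitosis list the kinases *Plk1* (0.43) and *Aurka* (0.56) were stabilized. Translation initiation factors had 4 of 49 stabilized and 10 destabilized (6 and 7), with *Eif4b* (-0.69) and *Eif2a* (-0.65) lowest. The spliceosome list had 1 of 43 stabilized and 10 destabilized (2 and 3). The destabilized shares were 20.4% and 23.3%. Heat shock and chaperonin genes had 1 of 28 stabilized, the ER chaperone *Hspa5* (0.47), and 8 destabilized (3 and 6). Of 16 glycolysis genes none was stabilized and 4 destabilized (1 and 2). The destabilized shares of these 2 lists were 28.6% and 25%. The apoptosis inhibitor gene *Birc6* changed by -0.50.

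Of the well-measured genes not annotated as protein-coding, the 16 stabilized ones include *Rn7sk* (0.61), *Rmrp* (0.27) and *Rpph1* (0.28), transcribed by RNA polymerase III. *Rn7sk* is the RNA of 7SK particles that hold P-TEFb, and *Rmrp* and *Rpph1* are those of RNase MRP and RNase P. Nascent changes were -0.88, -0.80 and -0.68, in this order. Of 24 small nucleolar RNAs 5 were stabilized and 1 destabilized, with a median of 0.19, among them *Snora73b* (0.44) and *Snora78* (0.65). Of 35 long intergenic RNAs 1 was stabilized and 4 destabilized. Among other long RNAs, *Dleu2* (-0.83), *Rian* (-0.61), from the imprinted Dlk1-Dio3 region, and *Tug1* (-0.44) were destabilized. These genes were chosen after their values were seen, and short RNAs are recovered unevenly by such libraries.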
